A study of Mus musculus with 12 samples.

Results

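Expression of 40 DNA replication genes was examined by RNA-seq in mesangial cells of mouse (MMC), the contractile cells that hold the capillaries of the kidney glomerulus. The genes were taken by symbol from a list covering licensing of replication origins, the replication fork, nucleotide supply and chromatin behind the fork, and all 40 were found among the 25230 genes counted. Cultures were of wild type (WT) or of the lncMGC-KO5 line (KO), 1 of several lines of C57BL/6J mice in which Cas9 and guide RNAs on both sides of the transcription start site of the long non-coding RNA lncMGC were injected into embryos. Each genotype was left untreated as a serum-depleted control (SD) or given 10 ng/ml of TGF-β, with 24 hours stated for every sample. The 3 libraries of each of the resulting groups are called WT-SD and WT-TGF, or KO-SD and KO-TGF. The cells came from pooled glomeruli and were used at low passage. The labels do not say that the 3 libraries of a group came from separate cultures or mice, so the p-values measure the spread between these libraries, which may be technical. Genotype and the separate preparation of each culture cannot be told apart. lncMGC was not among the genes counted, so the genotype of the libraries labelled KO was not checked with it. Mirg, an RNA that overlaps the 3′ part of lncMGC and lies outside the deleted stretch, was at 2.1 to 2.64 CPM (counts scaled to a common library size) in WT-SD, 3.46 to 3.76 in WT-TGF, 3.32 to 4.31 in KO-SD and 3.69 to 4.70 in KO-TGF. Its level was thus not lower in the libraries labelled KO, and above all those of WT in SD. The paper reports lower Mirg in KO5 cells by RT-qPCR, which these low counts do not show. No other gene of the locus was read for this purpose, so the genotypes rest on the labels alone.

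Eukaryotic DNA is copied from many origins. The origin recognition complex (Orc1 and Orc6 here) with Cdc6 and Cdt1 loads the Mcm2 to Mcm7 ring on DNA, a step called licensing. Cdc45, the GINS complex and Mcm10 then turn the ring into an active helicase, polymerase α with primase starts each strand, and polymerases ε and δ extend the leading and the lagging strand, held on DNA by the PCNA clamp. Many of these genes are transcribed when cells leave quiescence and enter S phase, under E2F transcription factors. Mesangial cells divide little in the healthy glomerulus, and TGF-β is known in culture both for inducing matrix genes and for slowing division of many cell types.

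Promoter sequences were compared because the choice of the genes did not use them. Of the 40 genes, 34 had a promoter window in RefSeq (GRCm38.p6), which runs from 250 bases before to 50 bases after a start site, and these 34 genes had 40 windows. Letters bound by E2F (TTGGCGC or its relative TTCCCGC, the form TTGCCGC and also the form TTCGCGC, on either strand and with overlaps allowed) occurred in 26 of the 40 windows (65%), against 16.7% of 11421 windows of all genes tested and 9.57% of 32851 windows in all. The letters CCAAT, bound by NF-Y, were in 55% of the windows of replication genes and in 37.7% of those of all genes tested. The letters TTTGAA, an element of many mitosis genes, were in 12.5% and 11.7%. In the lines below, stretches before the start site are written 5′ to 3′ on the strand of the gene with the E2F letters in capitals, first for 3 genes whose KO-SD libraries were all above the 9 others (Mcm5, Uhrf1 and Chaf1a) and then for 2 genes (Mcm6 and Rrm1) whose levels followed other patterns although their windows hold the same letters. Each stretch lies before the first annotated base of its gene in GENCODE vM21.
Mcm5 (chr8:75109329-75109388, + strand): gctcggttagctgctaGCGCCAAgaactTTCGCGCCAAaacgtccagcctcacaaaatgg
Uhrf1 (chr17:56303257-56303316, + strand): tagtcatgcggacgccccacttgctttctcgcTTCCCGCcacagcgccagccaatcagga
Chaf1a (chr17:56040336-56040395, + strand): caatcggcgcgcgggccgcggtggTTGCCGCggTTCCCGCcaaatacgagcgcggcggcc
Mcm6 (chr1:128359726-128359825, - strand): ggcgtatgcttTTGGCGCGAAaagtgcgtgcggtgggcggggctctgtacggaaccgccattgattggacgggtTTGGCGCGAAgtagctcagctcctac
Rrm1 (chr7:102441595-102441654, + strand): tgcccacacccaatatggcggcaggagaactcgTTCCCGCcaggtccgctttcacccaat

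The Mcm5 stretch holds 3 matches and the Mcm6 stretch 4, because TTGGCGC and TTCGCGC overlap on opposite strands. The matches describe letters in a window and say nothing of binding in these cells. The 23 genes with E2F letters differed between KO-SD and WT-SD by a median of 0.98 on the log2 scale, the 11 genes with windows without them 0.82, and the 6 genes without a window 0.89. Members without the letters included Tk1, with the largest of all these differences (2.12), and Mcm10 (1.39).

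Depth was similar in all libraries, between 19898050 and 22827706 counts on genes. Levels are given as CPM with library sizes scaled by the trimmed mean of M values (TMM), and levels of different genes are compared only per kb of exons (RPKM). Of the 40 genes, 38 had RPKM >1 in at least one library and entered the fit of 11469 genes. Among the 38, 8 (Cdc6, Mcm10, Cdc45, Gins1, Pola1, Pole, Pole2 and Rfc5) passed this limit only in KO-SD libraries, where they were high. Orc1 and Tk1 did not pass and come from a second fit, of all 18565 genes that had any count, so the counts below cover all 40. Mesangial and smooth muscle markers were abundant, with a summed level of 2864 to 2984 CPM in WT-SD, 6056 to 6188 in WT-TGF, 5126 to 5338 in KO-SD and 11260 to 11350 in KO-TGF, led by Acta2 and Tagln. All 13 markers but Thy1, which was at or near 0, were counted more than 3 times in each group. The sum covers unlike genes. Acta2, Tagln, Cspg4 and Gata3 were higher in KO, but Des had means of 7.53, 5.64, 0.530 and 0.250 CPM in the same order of groups. Serpine2 was at 273, 194, 84.1 and 44.9 and Foxd1 at 21.8, 17.1, 15.7 and 10.2. Means of Pdgfra, Itga8 and Myh11 were 3.48 CPM or less. Macrophage markers together were at 36.1 to 39.3 CPM in WT-SD, 19.7 to 23.6 in WT-TGF, 8.20 to 9.78 in KO-SD and 2.38 to 2.72 in KO-TGF, with Adgre1, C1qa and C1qb at 0 in both KO groups. Of these 11 markers, 10, 9, 4 and 3 in the same order of groups were above 3 counts. Tubular markers together were at 304 to 316, 133 to 146, 174 to 189 and 71.5 to 74.5 CPM, with Slc34a1 and Umod at 0 in every group, and 6 of 9 above 3 counts. Podocyte markers together were at 452 to 460.1, 457 to 476, 218 to 228 and 208 to 223 CPM, with 5, 4, 4 and 4 of 8 above 3 counts and Nphs1, a defining marker, at 3 counts or fewer in each group. Endothelial markers together were at 32.6 to 32.9, 20.2 to 22.7, 17.2 to 18.6 and 9.37 to 10.96 CPM, with 3, 2, 4 and 3 of 8 above 3 counts and Cdh5 at 3 counts or fewer in each group. Podocyte sums were thus lower in both KO groups, and macrophage, endothelial and tubular sums were lower in KO than in WT and lower with TGF-β in both. The endothelial sum was almost all Ehd3 (mean 32.1 CPM in WT-SD) and the tubular sum mostly Pax8 (236.5 CPM). Other markers went the other way in SD, among them Aqp1 (4.03 CPM in WT-SD, 6.82 in KO-SD) and Slc12a1 (0.351 and 1.26). So did Kdr, Tek and Pecam1, with means of 0.376 CPM or less. Slc12a1 also rose with TGF-β, to 0.846 in WT-TGF and 3.09 in KO-TGF. The part of these cell types in the results was not tested. In bulk RNA, fewer cells in S phase and less RNA per cell cannot be told apart.

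**Figure D1:**
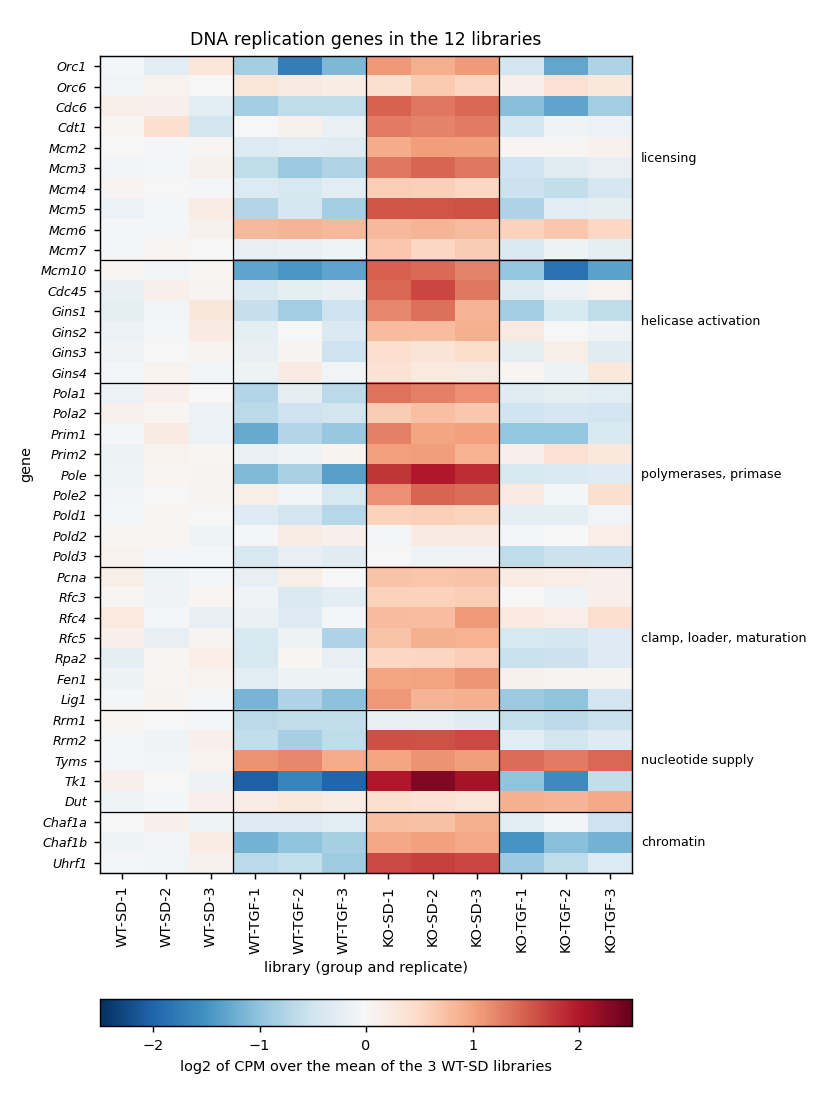
Level of each of the 40 genes in each of the 12 libraries, as log2 of CPM over the mean of the 3 WT-SD libraries, with genes in rows ordered by role and libraries in columns. The KO-SD columns are red in most rows, while Rrm1, Pold2 and Pold3 are pale there and Mcm6, Tyms and Dut are red in other columns too.

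KO-SD was compared with WT-SD to ask how the genotypes differ without TGF-β. Replication genes were higher in KO-SD: 37 of 40 rose, 1 (Rrm1) fell and 2 (Pold2 and Pold3) did not pass FDR <5% (edgeR's quasi-likelihood F test, Benjamini-Hochberg). Among all genes tested, 35.6% were higher and 21.6% were lower. Of the genes called, 62.3% were thus higher, or 36.9% with scaling by library size alone. The 40 genes had a median log2 difference of 0.96, all genes tested one of 0.05. A fold change >2 was reached by 18 of the 40 genes, 16 of them in the fit of 11469 genes, against 3.36% of genes tested that rose this much. In 33 of the 40 genes, every KO-SD library was above the 9 other libraries, which was so for 11.3% of genes tested. The 7 exceptions were Mcm6, Gins4, Pold2, Pold3, Rrm1, Tyms and Dut. The 8 genes that passed the RPKM limit only in KO-SD are all among the 33, and all but Rfc5 are among the 16. Their high level in KO-SD let them into the fit, so they are no separate evidence of a rise. In the second fit, which needed only a count, 37 of the 40 genes rose, 18 of them with fold change >2. Of all 18565 genes in that fit, 23.4% were higher and 600 rose this much.

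All 10 licensing genes rose in KO-SD, by 0.53 to 1.57 on the log2 scale, against 35.6% of all genes tested that were higher. This count and those of the other roles below are parts of the 37 of 40. Mcm5, a subunit of the ring, was at 6.49, 7.06 and 8.23 CPM in the WT-SD libraries and at 21.5, 21.4 and 21.7 CPM in KO-SD. These groups did not overlap, and the difference was 1.57 ± 0.09 (log2, SE of the fit, n = 3 and 3) with FDR = 2.37e-15 in edgeR's quasi-likelihood test. Mcm3, its neighbor in the ring, was at 10.5, 10.7 and 11.9 CPM in WT-SD and 27.5, 30.1 and 27.4 CPM in KO-SD. Mcm4 and Mcm7 rose less, by 0.58 and 0.61, and Mcm2 rose by 1.01. Cdc6, the loader of the ring, was counted 53, 55 and 40 times in WT-SD and 130, 110 and 127 times in KO-SD (log2 difference 1.40 ± 0.14). Its partner Cdt1 rose by 1.22 ± 0.14. Orc1, the largest subunit of the origin recognition complex and a low gene here, had 26, 23 and 33 counts in WT-SD and 55, 46 and 54 in KO-SD, without overlap (1.003 ± 0.21, FDR = 6.31e-06 in the second edgeR fit). Orc6 rose by 0.53 ± 0.08.

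All 6 genes of helicase activation rose in KO-SD, against 35.6% of all genes tested. Among the 6, Cdc45 (1.47 ± 0.13) and Mcm10 (1.39 ± 0.13) changed most and the GINS subunits were unequal. Gins1 rose by 1.14 ± 0.22 and Gins2 by 0.81 ± 0.12, while Gins3 and Gins4 rose by 0.39 ± 0.13 and 0.28 ± 0.08. With scaling by library size alone the rises of Gins3 (FDR = 0.0617) and Gins4 (FDR = 0.0716) did not pass in edgeR, and Gins3 did not pass in DESeq2 (FDR = 0.0543).

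Polymerases and primase differed by subunit, and 7 of their 9 genes rose in KO-SD, against 35.6% of all genes tested. Pole, the catalytic subunit of polymerase ε, was at 6.09, 6.76 and 6.85 CPM in WT-SD and 22.6, 26.2 and 23.5 CPM in KO-SD. Its log2 difference of 1.87 ± 0.08 (FDR = 3.38e-18, edgeR) was second only to that of Tk1 among the 40 genes. The second subunit Pole2 rose by 1.34 ± 0.17. All 4 subunits of polymerase α-primase rose, with Pola1 (1.25 ± 0.10), the catalytic subunit, above Prim1 (1.09 ± 0.12), which makes the RNA primer, Prim2 (0.97 ± 0.09) and Pola2 (0.68 ± 0.08). Polymerase δ stood apart within the same family. Its catalytic subunit Pold1 rose by 0.57 ± 0.08, but Pold2 was at 13.4, 13.5 and 12.1 CPM in WT-SD and 12.8, 14.97 and 15.01 in KO-SD, and Pold3 at 18.1, 16.5 and 16.6 in WT-SD and 17.0, 15.9 and 16.0 in KO-SD. The groups overlapped for both, with log2 differences of 0.13 ± 0.08 and -0.06 ± 0.07. Without KO-SD replicate 1, Pold2 passed (FDR = 0.0346, edgeR).

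All 7 genes of the clamp, clamp loader, single-strand binding and lagging-strand maturation rose in KO-SD, against 35.6% of all genes tested. Their rises lay within the narrow range of 0.54 to 1.03 on the log2 scale. Fen1, the nuclease that trims Okazaki fragments, was at 6.53, 7.32 and 7.56 CPM in WT-SD and 14.2, 14.2 and 15.2 CPM in KO-SD (1.03 ± 0.08). Lig1, which seals the fragments, rose by 0.94 ± 0.09. The clamp Pcna rose by 0.70 ± 0.08, the loader subunits Rfc3, Rfc4 and Rfc5 by 0.59, 0.88 and 0.82, and the single-strand binding subunit Rpa2 by 0.54. Counts of Pcna and Tyms are uncertain because the genome holds processed copies of both genes, and reads with more than one best alignment were not counted.

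Nucleotide supply held both ends of the range. Tk1, the thymidine kinase of S phase, had 24, 23 and 20 counts in WT-SD and 85, 101 and 90 in KO-SD (2.12 ± 0.19, FDR = 6.64e-28 in the second edgeR fit, in which 23.4% of genes were higher). Rrm2, the small subunit of ribonucleotide reductase, was at 14.5, 13.9 and 16.2 CPM in WT-SD and 45.2, 44.8 and 46.8 in KO-SD (1.62 ± 0.06). The large subunit Rrm1 went the other way, from 286, 280 and 276 CPM in WT-SD to 244, 242 and 227 in KO-SD, without overlap (-0.24 ± 0.03, FDR = 3.53e-08, edgeR). Per kb of exons the ratio of Rrm1 to Rrm2 was 4.75 in WT-SD, 4.94 in WT-TGF, 1.31 in KO-SD and 3.97 in KO-TGF. With the longest coding transcript as the length these ratios were 10.4, 10.8, 2.86 and 8.67, so their size depends on the length while KO-SD is lowest with either. Tyms, which makes thymidylate, rose by 1.05 ± 0.09 and Dut, which keeps uracil out of DNA, by 0.35 ± 0.06. Among genes of chromatin behind the fork, Uhrf1, which brings maintenance methylation to new DNA, was at 6.53, 6.47 and 7.25 CPM in WT-SD and 21.1, 22.2 and 21.3 in KO-SD (1.67 ± 0.09). The histone chaperone subunits Chaf1a and Chaf1b rose by 0.79 ± 0.08 and 0.98 ± 0.10.

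**Figure D2:**
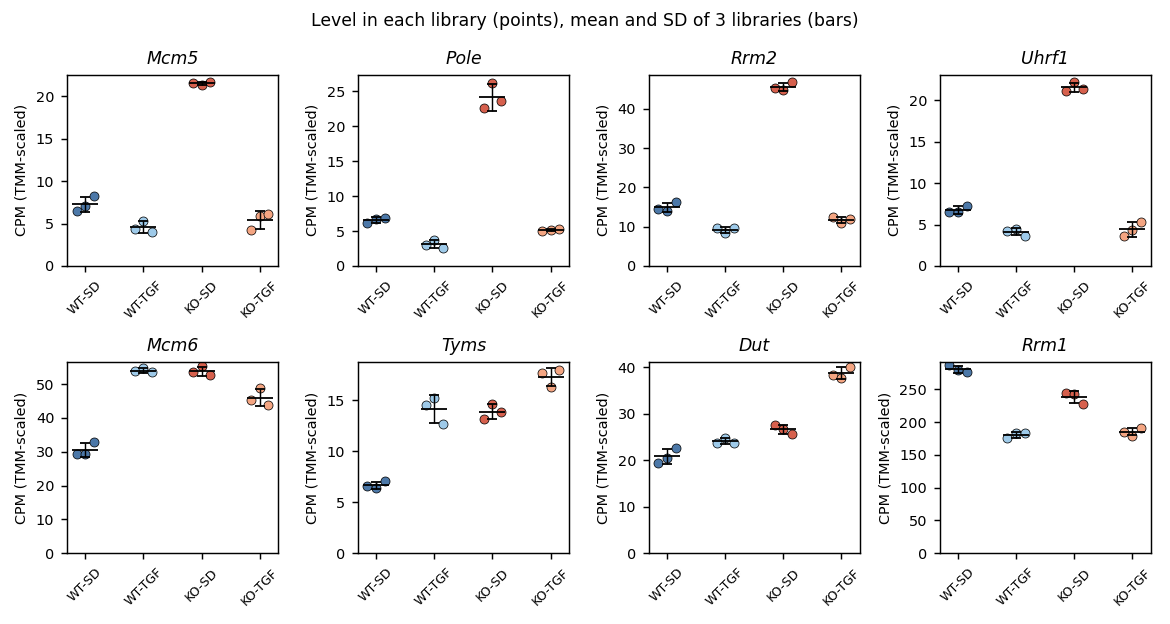
Level of 8 genes in CPM (linear axis from 0) in each of the 12 libraries (points), with the mean and SD of the 3 libraries of a group (bars). In Mcm5, Pole, Rrm2 and Uhrf1 the KO-SD points stand above the 9 others, whereas Mcm6, Tyms, Dut and Rrm1 each have a different order of groups.

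With TGF-β in WT MMC, replication genes were mostly lower. Of the 40 genes, 24 fell, 4 rose (Orc6, Mcm6, Tyms and Dut) and 12 did not pass FDR <5% in edgeR's test, against 33.4% lower and 39.3% higher of all genes tested. Of all genes called, 54.1% were higher, or 30.4% with scaling by library size alone. The median response of the 40 genes was -0.30 (log2), that of all genes tested 0.03. A fold change >2 downward was found for Mcm10, Pole and Chaf1b, 3 of the 38 genes in the fit of 11469, in which 5.34% of genes fell this much. That count is near the background, and Mcm10 and Pole had passed the RPKM limit only in KO-SD. In the second fit Orc1 and Tk1 also fell this much, which made 5 of the 40 genes, against 1278 of all 18565 genes in that fit.

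The falls in WT were unequal within complexes. Mcm10 was counted at 3.04, 2.81 and 3.04 CPM in WT-SD and 1.19, 1.08 and 1.19 CPM in WT-TGF, a log2 fold change of -1.36 ± 0.19 (FDR = 2.38e-07, edgeR). Pole (-1.06 ± 0.13), Chaf1b (-1.01 ± 0.13), Lig1 (-0.98 ± 0.12) and Prim1 (-0.97 ± 0.17) also fell with no overlap of libraries. Tk1 had 5, 7 and 5 counts in WT-TGF against 24, 23 and 20 in WT-SD (-1.86 ± 0.36 in the second fit, in which 25.8% of genes were lower), and Orc1 had 14, 8 and 11 (-1.20 ± 0.30). Within the ring, Mcm3 and Mcm5 fell by 0.77 and 0.66, Mcm2 and Mcm4 by 0.30 and 0.35, and Mcm7 by 0.16 with FDR = 0.0389 (edgeR).

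Mcm6 moved against the rest of its complex in WT. It was at 29.4, 29.3 and 33.0 CPM in WT-SD and at 53.7, 54.7 and 53.5 CPM in WT-TGF, so that the groups lay far apart (0.82 ± 0.05, FDR = 6.98e-16, edgeR). Tyms rose in the same way, from 6.58, 6.38 and 7.07 to 14.5, 15.3 and 12.7 CPM (1.09 ± 0.09). Dut (0.21 ± 0.06) and Orc6 (0.24 ± 0.08) rose little, and neither passed with scaling by library size alone (FDR = 0.777 and 0.578, edgeR). The remaining falls in WT were those of Cdc6 (-0.71), Uhrf1 (-0.71), Rrm2 (-0.69), Gins1 (-0.66), Rrm1 (-0.64), Pola2 (-0.55), Pola1 (-0.53), Pold1 (-0.49), Rfc5 (-0.39), Chaf1a (-0.31), Pold3 (-0.30) and Rfc3 (-0.23). The 12 genes that did not pass, Cdt1, Cdc45, Gins2, Gins3, Gins4, Prim2, Pole2, Pold2, Pcna, Rfc4, Rpa2 and Fen1, had log2 fold changes between -0.27 and 0.09. With scaling by library size alone, 7 of these 12 (Cdc45, Gins2, Gins3, Prim2, Pcna, Rpa2 and Fen1) passed as lower (FDR = 0.00143 to 0.0284, edgeR), so that 31 genes fell. Mcm7, Gins1 and Rfc3 did not pass in DESeq2 (FDR = 0.0622, 0.0855 and 0.0504), nor did Mcm7 and Gins1 in edgeR with no filter (FDR = 0.0513 and 0.0501). Some calls rested on single libraries. Mcm7 lost its call without WT-SD replicate 2 or 3 or WT-TGF replicate 1 or 2 (FDR = 0.0623 to 0.134, edgeR), Gins1 without WT-SD replicate 2 or 3 or any WT-TGF library (FDR = 0.0526 to 0.168, edgeR), Rfc3 without WT-SD replicate 1 or 3 or WT-TGF replicate 2 or 3 (FDR = 0.0633 to 0.182, edgeR) and Rfc5 without WT-SD replicate 1 or 3 or WT-TGF replicate 3 (FDR = 0.0562 to 0.145, edgeR). Rpa2 passed as lower without WT-SD replicate 1 (FDR = 0.0437, edgeR) or WT-TGF replicate 2 (FDR = 0.0447, edgeR).

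**Figure D3:**
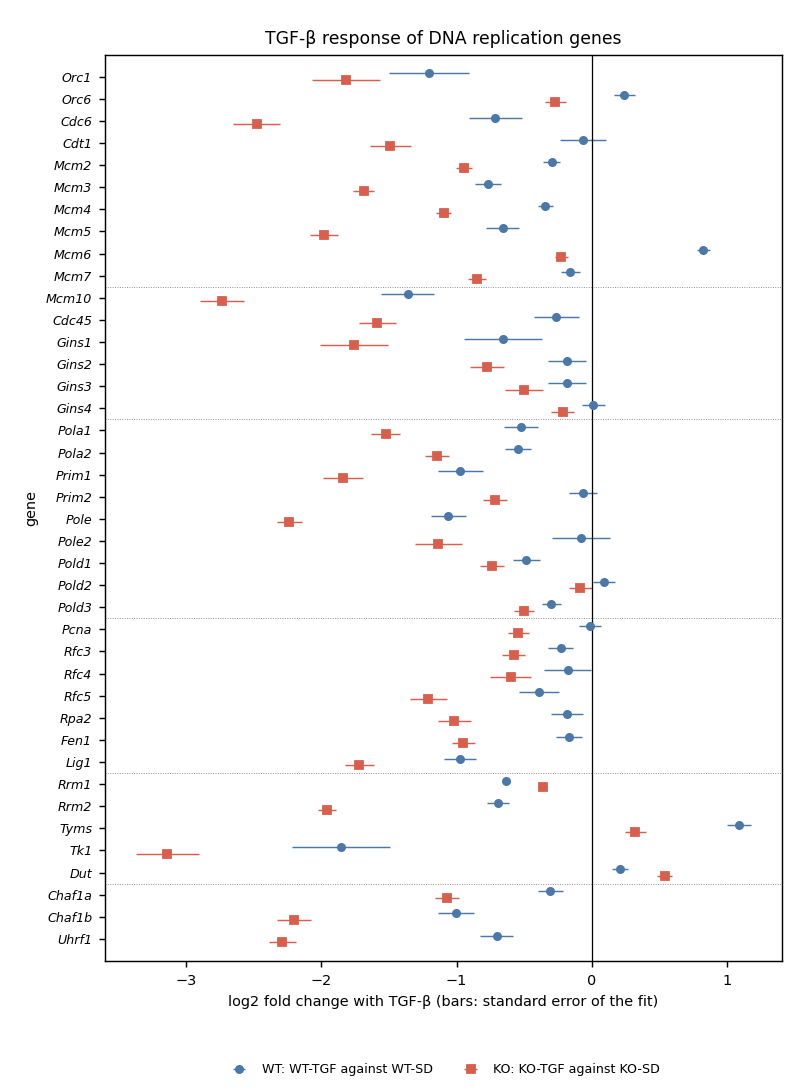
Log2 fold change with TGF-β for each of the 40 genes (rows, ordered by role) in WT (circles, WT-TGF against WT-SD) and in KO (squares, KO-TGF against KO-SD), with the standard error of the fit as bars. The squares lie left of the circles in every row but Rrm1 and Dut, and Mcm6, Orc6, Gins4 and Pold2 have a circle right of 0 and a square left of it, with the circles of Gins4 (0.010) and Pold2 (0.09) close to 0.

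In KO MMC, nearly all replication genes were lower with TGF-β. In the KO-TGF against KO-SD comparison 37 of 40 fell, 2 rose (Tyms and Dut) and 1 (Pold2) did not pass, against 37.8% lower and 36.4% higher of all genes tested. Of all genes called, 49.0% were higher, or 25.5% with scaling by library size alone. In the log2 responses the median was -1.09 over the 40 genes and -0.01 over all genes tested. A fall with fold change >2 was found for 22 of the 40 genes, 20 of them in the fit of 11469 genes, and for 8.82% of genes tested. This comparison uses the same KO-SD libraries as the one between genotypes in SD, in which most of these genes were high, so the 2 sets of values are not independent. The 8 genes that passed the RPKM limit only in KO-SD are all among the 20, and that high level let them into the fit. In the second fit, which needed only a count, 37 of the 40 genes fell, 22 of them with fold change >2. Of all 18565 genes in that fit, 28.5% were lower and 1772 fell this much.

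Mcm10 fell most among the genes that passed the RPKM limit, from 8.38, 7.94 and 7.02 CPM in KO-SD to 1.52, 0.810 and 1.17 CPM in KO-TGF (-2.73 ± 0.16, FDR = 1.52e-15, edgeR). Cdc6 had 130, 110 and 127 counts in KO-SD and 19, 16 and 22 in KO-TGF (-2.48 ± 0.18). Uhrf1 went from 21.1, 22.2 and 21.3 to 3.58, 4.32 and 5.32 CPM (-2.29 ± 0.10). In all 3 the KO-TGF libraries were far below those of KO-SD. Further falls on the log2 scale were those of Pole (-2.23 ± 0.09), Chaf1b (-2.20 ± 0.13), Mcm5 (-1.98 ± 0.10), Rrm2 (-1.96 ± 0.06), Prim1 (-1.84 ± 0.15) and Lig1 (-1.72 ± 0.10). Tk1, at 9, 6 and 12 counts in KO-TGF against 85, 101 and 90 in KO-SD, had the largest log2 fold change of the 40 (-3.14 ± 0.24 in the second fit, in which 28.5% of genes were lower).

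The smallest falls in KO were those of Gins4 (-0.22 ± 0.09), Mcm6 (-0.23 ± 0.05), Orc6 (-0.27 ± 0.08) and Rrm1 (-0.36 ± 0.03). Mcm6 was at 53.5, 55.2 and 52.6 CPM in KO-SD and at 45.2, 48.7 and 43.8 CPM in KO-TGF, still above every WT-SD library. Gins4 overlapped between the groups and lost its call without KO-SD replicate 1 (FDR = 0.0825, edgeR) or without KO-TGF replicate 1 or 2 (FDR = 0.0736 and 0.193, edgeR), and it did not pass in DESeq2 (FDR = 0.0887). Dut rose from 27.6, 26.8 and 25.7 to 38.4, 37.6 and 40.1 CPM (0.54 ± 0.05), and Tyms from 13.2, 14.6 and 13.8 to 17.7, 16.3 and 17.9 CPM (0.32 ± 0.08). The means of Dut and Tyms were highest in KO-TGF. Scaled by library size alone, the rise of Tyms in KO did not pass (FDR = 0.216, edgeR).

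The TGF-β response was compared between genotypes with an interaction term, the log2 response in KO minus the log2 response in WT. The same term equals the genotype difference under TGF-β minus that in SD. It therefore shares the high KO-SD level of most of these genes and is not independent of the comparison in SD. It passed FDR <5% (edgeR) as negative in 30 of 40 genes and as positive in 2 (Rrm1 and Dut) and did not pass in 8, against 18.7% negative and 7.69% positive of all genes tested. Of all genes called, 29.1% were positive, or 45.5% with DESeq2. The median difference over the 40 genes was -0.77 against -0.05 for all genes tested. Differences beyond a factor of 2 were found for 12 of the 40 genes and for 2.54% of genes tested, in the negative direction. Of these 12, Cdc6, Mcm10, Cdc45, Gins1, Pole and Pole2 had entered the fit only through their KO-SD level. The second fit also gave 30 negative genes among the 40, against 2328 of all 18565 genes. Beyond this factor were 12 of the 40 and 428 of the 18565. The most negative differences were those of Cdc6 (-1.76 ± 0.28, FDR = 1.15e-05, edgeR), Uhrf1 (-1.58 ± 0.16), Cdt1 (-1.43 ± 0.23), Mcm10 (-1.37 ± 0.28), Cdc45 (-1.32 ± 0.22) and Mcm5 (-1.32 ± 0.17). Cdt1 shows the contrast plainly, since it was at 3.09, 4.00 and 2.19 CPM in WT-SD and 2.99, 3.23 and 2.67 in WT-TGF, which overlap, but at 7.37, 7.07 and 7.34 CPM in KO-SD and 2.22, 2.81 and 2.71 in KO-TGF. Mcm6 and Orc6 rose in WT and fell in KO, with differences of -1.05 ± 0.07 and -0.51 ± 0.11 that both passed. Rrm1 fell less in KO than in WT (0.28 ± 0.04) and Dut rose more (0.33 ± 0.08). The 8 genes not called were Orc1, Gins3, Gins4, Pold1, Pold2, Pold3, Rfc4 and Tk1. Of these, Tk1 (-1.28 ± 0.52, FDR = 0.0733, second edgeR fit) and Gins4 (FDR = 0.181, edgeR) passed without KO-TGF replicate 3 (FDR = 0.0452 and 0.0440, edgeR). Gins1 lost its call without any 1 of 8 libraries, all but WT-SD replicate 3, WT-TGF replicate 2, KO-SD replicate 3 and KO-TGF replicate 2 (FDR = 0.0545 to 0.101, edgeR). Gins2 lost it without WT-SD replicate 1, WT-TGF replicate 2 or KO-TGF replicate 2 or 3 (FDR = 0.0508 to 0.107, edgeR). Rfc3 lost it without WT-SD replicate 1 or 2, WT-TGF replicate 1 or 3, KO-SD replicate 2 or 3 or KO-TGF replicate 1 or 2 (FDR = 0.0512 to 0.158, edgeR). Gins1, Gins2 and Rfc3 did not pass in DESeq2 (FDR = 0.134, 0.105 and 0.209).

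Under TGF-β most of the 40 genes did not pass between the genotypes. In KO-TGF against WT-TGF, 11 of 40 genes were higher (Mcm2, Mcm3, Prim2, Pole, Pold1, Rfc3, Rfc4, Fen1, Rrm2, Tyms and Dut), 3 were lower (Mcm4, Mcm6 and Pold3) and 26 did not pass, against 28.9% higher and 26.3% lower of all genes tested, but scaling by library size alone turned the balance, with 5 higher and 6 lower. Of all genes called, 52.4% were higher, or 23.3% with library size alone. The log2 differences lay between -0.37 (Cdc6) and 0.84 (Tk1), both of which did not pass, with a median of 0.16 against 0.01 for all genes tested. The 14 called genes had fold changes below 2, a size that 1.47% of genes tested passed upward and 4.51% downward. The largest differences that passed were those of Pole and Dut. Pole was at 3.03, 3.76 and 2.57 CPM in WT-TGF and 4.99, 5.13 and 5.22 in KO-TGF (0.70 ± 0.14), and Dut at 23.7, 24.9 and 23.8 and at 38.4, 37.6 and 40.1 CPM (0.68 ± 0.05). Neither overlapped. Mcm6 was at 53.7, 54.7 and 53.5 CPM in WT-TGF and lower in every KO-TGF library (-0.23 ± 0.05).

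Leaving out KO-TGF replicate 3 reduced the 11 higher genes to 7. Mcm4 lost its call without WT-TGF replicate 3 (FDR = 0.0668, edgeR) or KO-TGF replicate 2 (FDR = 0.103, edgeR), Prim2 without KO-TGF replicate 2 (FDR = 0.0625, edgeR) and Pold1 without WT-TGF replicate 3 or KO-TGF replicate 3 (FDR = 0.0905 and 0.0710, edgeR). The calls of Rfc3, Rfc4 and Fen1 were also lost: Rfc3 without WT-TGF replicate 2 or 3 or KO-TGF replicate 1 or 3 (FDR = 0.0532 to 0.184, edgeR), Rfc4 without WT-TGF replicate 1 or 2 or KO-TGF replicate 3 (FDR = 0.0566 to 0.117, edgeR) and Fen1 without WT-TGF replicate 1 or any KO-TGF library (FDR = 0.0596 to 0.124, edgeR). Mcm5, Pola1 and Pcna passed as higher without WT-TGF replicate 2 (FDR = 0.0379, 0.0103 and 0.0151, edgeR), Mcm5 also without KO-TGF replicate 1 (FDR = 0.0164, edgeR), and Rpa2 as lower without WT-TGF replicate 1 or KO-TGF replicate 3 (FDR = 0.0196 and 0.0415, edgeR). Mcm4, Rfc3, Rfc4 and Fen1 did not pass in DESeq2 (FDR = 0.0885, 0.0523, 0.0516 and 0.0630), nor did Fen1 in edgeR with no filter (FDR = 0.0586).

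Subunits of the ring, which work in equal numbers, were compared per kb of exons. The highest over the lowest subunit was 4.55 in WT-SD (Mcm4 at 8.27 RPKM over Mcm5 at 1.82), 10.1 in WT-TGF (Mcm6 at 11.6 over Mcm5 at 1.14), 2.57 in KO-SD (Mcm4 at 12.3 over Mcm2 at 4.81) and 7.21 in KO-TGF (Mcm6 at 9.84 over Mcm5 at 1.36). With the length of the longest coding transcript, a setting chosen after the data were seen, the ratios were 3.85, 9.17, 1.94 and 6.54 and the lowest subunit in KO-SD was Mcm5. The order of the 4 groups was the same with both lengths. GINS was less even, with Gins4 at 11.4 RPKM and Gins1 at 0.658 RPKM in WT-SD.

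**Figure D4:**
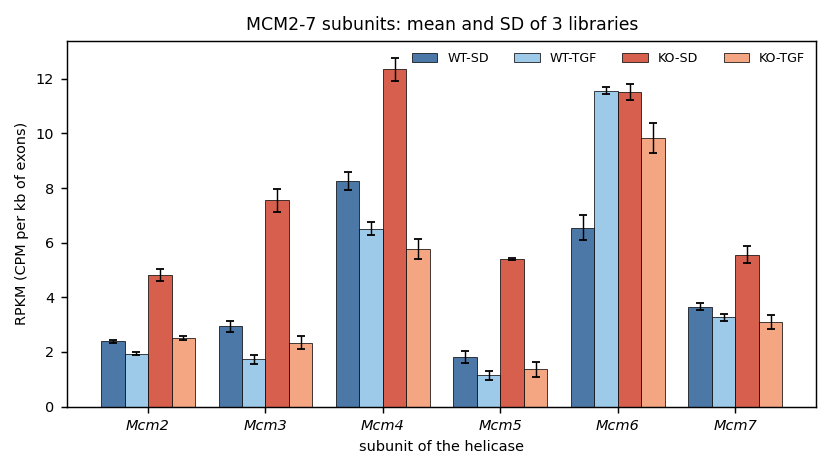
RPKM (linear axis from 0) of the 6 subunits of the MCM ring in the 4 groups, as the mean and SD of 3 libraries. The bars of Mcm2, Mcm3, Mcm4, Mcm5 and Mcm7 are highest in KO-SD, while for Mcm6 WT-TGF, KO-SD and KO-TGF all stand above WT-SD.

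Library by library, the median of the 40 genes relative to WT-SD was a log2 ratio of 0.89 to 0.95 in KO-SD, -0.38 to -0.29 in WT-TGF and -0.34 to -0.22 in KO-TGF. The ranges of WT-TGF and KO-TGF overlapped and KO-SD lay apart from both. The summed level without Rrm1, the most abundant of the 40 in CPM, was 347 to 358 CPM in WT-SD, 318 to 338 in WT-TGF, 639 to 651 in KO-SD and 342 to 364 in KO-TGF.

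Other genes of the same processes were read from the same fit, in which 35.6% of all genes were higher and 21.6% lower in KO-SD, and 37.8% in KO and 33.4% in WT were lower with TGF-β. Of 41 further replication genes listed, 36 were in that fit. Low genes of this and the later lists could enter it through their KO-SD level alone. Their counts are thus no separate evidence of a rise in KO-SD or of a fall from it. Of the 36 genes tested, 29 were higher in KO-SD than in WT-SD (median of the 36, 0.42) and 7 did not pass. With TGF-β, 24 fell and 8 rose in KO (median -0.36), and 12 fell and 8 rose in WT (median -0.05), where the share that fell was that of all genes. Asf1b, a histone chaperone, had the largest rise in KO-SD (2.15), and Clspn, a checkpoint mediator at the fork, the largest fall with TGF-β in KO (-2.94). The regulators of licensing and firing moved with the 40 genes in KO-SD. Gmnn, the inhibitor of Cdt1, was higher by 1.34 (FDR = 4.56e-08, edgeR), and both subunits of the kinase that fires origins, Cdc7 and Dbf4, were higher by 1.60 and 1.51. With TGF-β, Gmnn fell by 0.56 in WT and by 1.56 in KO, while Cdc7 and Dbf4 fell in KO by 1.29 and 0.77 and had log2 fold changes of -0.10 and 0.11 in WT that did not pass. Of 26 further genes of nucleotide supply, 17 were higher and 3 lower in KO-SD (median 0.19), against 35.6% and 21.6% of all genes tested. Unlike the 40 genes, more of these 26 rose than fell with TGF-β. In WT 15 rose and 6 fell (median 0.21), and in KO 12 rose and 7 fell (median 0.12). Of all genes tested, 39.3% rose and 33.4% fell in WT, and 36.4% rose and 37.8% fell in KO. The mitochondrial folate enzyme Mthfd2 rose with TGF-β by 1.25 in WT and 0.93 in KO. Samhd1, which degrades dNTPs, had the largest fall of this list in WT (-1.46).

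Of 33 genes of E2F, cyclin and CDK control, 20 were higher and 6 lower in KO-SD (median 0.16), against 35.6% and 21.6% of all genes tested, so that the share lower was near that of all genes. E2f1, an activator, differed by only 0.16 (FDR = 0.00261, edgeR), whereas the repressors E2f7 and E2f8 were higher by 1.76 and 1.86. With TGF-β, E2f7 fell by 0.90 in WT and 2.26 in KO, and E2f8 rose by 0.59 in WT and fell by 0.82 in KO. Cyclins of S phase were higher in KO-SD, Ccne1 by 1.12, Ccne2 by 1.16 and Ccna2 by 2.08. Ccna2 was at 10.8, 10.98 and 13.2 CPM in WT-SD and 51.3, 49.1 and 48.1 in KO-SD, and it fell to 6.13, 5.72 and 7.35 CPM in KO-TGF. The CDK inhibitor Cdkn1a was lower in KO by 0.41 in SD and 0.43 under TGF-β, and its rises with TGF-β, 0.21 in WT and 0.19 in KO, were of the size of the shift that scaling by library size alone makes (-0.19 and -0.22). Cdkn1b did not pass between genotypes in either condition (0.04 and -0.03).

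Mitosis genes moved in the same directions. Of 27 tested, 26 were higher in KO-SD (median 2) and Pttg1 was lower (-0.22), against 35.6% and 21.6% of all genes tested. All 27 fell with TGF-β in WT (median -1.45) and in KO (median -2.65), and 24 had a negative interaction. The shares of all genes tested were 33.4%, 37.8% and 18.7%. Mki67, the common marker of dividing cells, was at 36.7, 34.4 and 44.1 CPM in WT-SD, 8.68, 10.3 and 8.91 in WT-TGF, 149, 153 and 148 in KO-SD and 16.7, 16.6 and 17.9 in KO-TGF. These groups did not overlap. Top2a, Ccnb1 and Cdk1 were higher in KO-SD by 2.14, 2.21 and 1.60. Under TGF-β, 20 of the 27 mitosis genes were higher in KO and 1 was lower, against 28.9% and 26.3% of all genes tested. Mki67 (0.87) and Top2a (0.97) were among those higher. The part of the number of dividing cells in the levels of the 40 replication genes was not tested.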

How the data were processed

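RNA-seq of mRNA was done for 12 MMC samples. Per the labels and methods, TopHat placed the reads on mm10 and HTSeq assigned them to RefSeq genes by strand. The deposited values are the resulting counts, whole numbers without normalization. Reads outside genes (10.3% to 15.4% of a library), with several alignments (11.2% to 11.7%) or on overlapping genes (0.225% to 0.274%) were left out. Groups came from the labels. One quasi-likelihood model of all 12 libraries was fitted in edgeR 4.0.16 under R 4.3.3 after TMM scaling, with FDR by Benjamini-Hochberg over every gene tested. A gene was tested if its RPKM passed 1 in any library, with exon unions of GENCODE vM21 as lengths (562 genes had none). Calls had FDR <5%. Alternatives were library size alone, DESeq2 1.42.0, CPM >1 in at least 3 libraries, no filter, only the groups compared, the replicate block and each library left out. The fits were tested on simulated data. Members and lists were chosen with earlier results of these data known. All 40 members are named, and from each other list the gene with the largest change in each direction and contrast, of which some are shown. A search of proteins for a PCNA motif was not run. Results for some genes of these lists are not reported here.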

Additional observations from a re-analysis of the deposited data

Results flagged for a closer look

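The TGF-β response differed between the genotypes, as tested by the interaction in edgeR's quasi-likelihood fit, in 32 of the 40 genes at FDR <5%. Among all genes tested the interaction was negative in 18.7% and positive in 7.69%. The values are differences in log2 response, KO minus WT. Among licensing genes they were -1.76 for Cdc6, -1.43 for Cdt1, -1.32 for Mcm5, -1.05 for Mcm6, -0.92 for Mcm3, -0.75 for Mcm4, -0.69 for Mcm7, -0.65 for Mcm2 and -0.51 for Orc6. Among genes of helicase activation they were -1.37 for Mcm10, -1.32 for Cdc45, -1.10 for Gins1 and -0.59 for Gins2. Among polymerases and primase they were -1.17 for Pole, -1.055 for Pole2, -0.999 for Pola1, -0.87 for Prim1, -0.65 for Prim2 and -0.60 for Pola2. For the clamp, its loader, single-strand binding and maturation they were -0.83 for Rpa2, -0.82 for Rfc5, -0.78 for Fen1, -0.74 for Lig1, -0.53 for Pcna and -0.35 for Rfc3. In nucleotide supply they were -1.265 for Rrm2, -0.77 for Tyms, 0.28 for Rrm1 and 0.33 for Dut, and for chromatin -1.58 for Uhrf1, -1.20 for Chaf1b and -0.76 for Chaf1a. The sign is negative where the response of KO was more downward. The values share the KO-SD libraries, in which most of these genes were at their highest.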

How the results depend on the processing

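No direction of a called gene among the 40 reversed under any alternative. Scaling by library size alone moved the median of all genes by -0.19 and -0.22 for TGF-β in WT and KO, -0.11 and -0.13 for genotype in SD and under TGF-β, and -0.03 for the interaction. With it the median of the 40 genes was -0.49 and -1.30 for TGF-β in WT and KO, 0.85 for genotype in SD and 0.029 under TGF-β. It called 31 genes lower with TGF-β in WT, 2 higher in WT and 1 in KO, 2 lower in KO-SD, and 5 higher and 6 lower in KO-TGF. DESeq2 gave a median interaction of -0.71 and lost 12 calls: Mcm7, Gins1 and Rfc3 with TGF-β in WT, Gins4 in KO, Gins3 in KO-SD, Mcm4, Rfc3, Rfc4 and Fen1 in KO-TGF, and Gins1, Gins2 and Rfc3 in the interaction. With no filter, 3 calls were lost (Mcm7 and Gins1 in WT, Fen1 in KO-TGF) and Rpa2 passed as lower in KO-TGF (FDR = 0.0483, edgeR). Leaving out each library gave medians of 0.90 to 0.98 for genotype in SD, 0.10 to 0.18 under TGF-β and -0.80 to -0.72 for the interaction, and called 7 to 12 genes higher and 2 to 4 lower in KO-TGF. With the replicate block, numbers of calls were 37 higher in KO-SD, 37 lower with TGF-β in KO and 4 lower in KO-TGF, the last from the addition of Rpa2 (FDR = 0.0426, edgeR), and no other call changed. Replicate numbers did not pair libraries (correlations of -0.03 to 0.09 over 18 pairs).

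Signs that reversed belonged to genes not called in the report. With library size alone the response in WT was -0.18 for Gins4 and -0.10 for Pold2, and KO-TGF against WT-TGF gave -0.11 for Orc6, -0.11 for Mcm10, -0.094 for Gins1, -0.062 for Gins3, -0.082 for Gins4, -0.053 for Pola2, -0.13 for Rfc5, -0.10 for Rrm1 (FDR = 0.0078, edgeR), -0.10 for Chaf1a and -0.039 for Uhrf1. DESeq2 gave -0.0094 for Gins4 in WT. Over the libraries left out, the response in WT spanned -0.26 to 0.17 for Cdt1, -0.094 to 0.078 for Gins4, -0.095 to 0.073 for Pcna and -0.21 to 0.045 for Pole2. KO-TGF against WT-TGF spanned -0.091 to 0.14 for Chaf1a, -0.089 to 0.15 for Gins1, -0.076 to 0.23 for Gins3, -0.058 to 0.17 for Gins4, -0.21 to 0.23 for Mcm10, -0.042 to 0.082 for Orc6, -0.12 to 0.0094 for Pold2, -0.0094 to 0.36 for Prim1, -0.14 to 0.17 for Rfc5 and -0.065 to 0.22 for Uhrf1. Why these values moved was not tested.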

Other observations

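Of 24 listed genes of fork protection and homologous recombination, 19 were in the same edgeR fit. That fit took genes with RPKM >1 in any library, so low genes could enter it through their KO-SD level alone. The counts are thus no separate evidence of a rise in KO-SD or of a fall from it. Of the 19, 16 were higher in KO-SD than in WT-SD (median log2 difference 0.89), against 35.6% of all genes tested. With TGF-β, 14 of the 19 fell in KO (median -1.15) and 10 in WT (median -0.62), against 37.8% and 33.4% of all genes tested. Fancd2, which guards stalled forks, was at 1.97, 2.13 and 2.103 CPM in WT-SD, 0.759, 0.762 and 0.990 in WT-TGF, 5.99, 8.57 and 8.49 in KO-SD and 0.759, 0.756 and 0.799 in KO-TGF. The KO-SD libraries stood above all others, and the fall with TGF-β in KO was the largest of the list (-3.31 ± 0.19, FDR = 8.14e-16). Rad17, the loader of the checkpoint clamp, rose with TGF-β by 0.40 in WT and 0.35 in KO.

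Of 8 housekeeping genes tested, 4 were higher in KO-SD, near the 35.6% of all genes tested. Actb, which codes for actin of the cytoskeleton, was among them, at 1465, 1462 and 1461 CPM in WT-SD and 2474, 2442 and 2377 CPM in KO-SD (0.73 ± 0.02), and with TGF-β its mean was 2540 CPM in the WT cells and 4030 CPM in the KO cells, so it was not level across these groups.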
